A study of Mus musculus with 12 samples.

Results

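The 10 genes followed here belong to the epithelial-mesenchymal transition, and they were compared between undifferentiated and differentiated mouse mammospheres: the transcription factors Snai1, Snai2, Twist1, Twist2, Zeb1 and Zeb2, the cadherins Cdh1, Cdh2 and Cdh11, and the intermediate filament gene Vim. They are 10 of 18194 genes that a probe set of the chips names singly. Every Affymetrix probe set paired with 1 of these symbols alone was taken, whatever its values, which gave 22 of the 45265 probe sets on the chips MOE430A and MOE430B. A filter on low signals left 19 of the 22 for testing, of 33854 tested in all.

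Mammospheres are clusters of mammary gland cells that grow in suspension. The undifferentiated samples were at passage 3 in a 3:1 mixture of DMEM and F12 with B-27, basic fibroblast growth factor, epidermal growth factor and heparin, and the submitters put their purity at 90%, with 10% myoepithelial cells. The differentiated samples came from mammospheres kept for 6 days on dishes coated with collagen, in high-glucose DMEM to which 5% fetal bovine serum was added, and were estimated to be 50% myoepithelial and 50% luminal. There were 3 RNA samples of either state, with the sample numbers 1, 2 and 4, and both chips were run for each, giving 12 arrays. The labels name no strain, age or number of animals and do not say that the samples of a state are separate cultures, so p-values measure the spread between these samples, which may be technical. Medium, serum, growth factors and attachment changed together with the state, as did the fluidics station, and cannot be told apart from it.

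In an epithelial-mesenchymal transition, epithelial cells give up their junctions and polarity and take on a motile, fibroblast-like form. Proteins of the Snail, Twist and Zeb families act in it as transcription factors, and several of them repress Cdh1, which encodes the epithelial adhesion protein E-cadherin, by binding E-box sequences in its promoter. Loss of E-cadherin together with gain of N-cadherin, encoded by Cdh2, is known as the cadherin switch. In the mammary gland E-cadherin joins luminal cells, while Cdh11 and Vim are typical of stromal fibroblasts, and Snai2 is also known from basal epithelial cells.

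The 250 bases before the transcription start of Snai1, Twist1, Twist2 and Vim are shown so that the E-box letters bound by Snail and Zeb proteins can be looked for in the members' own promoters. Of the 10 genes, 5 matched the promoter table; Zeb2 has several starts there and is not shown. The windows are RefSeq sequences of the mouse build GRCm38.p6, each from the plus strand and written 5′ to 3′, at chr2:167537945-167538194 for Snai1, chr12:33957421-33957670 for Twist1, chr1:91801211-91801460 for Twist2 and chr2:13574061-13574310 for Vim. Capitals mark the E-box CAGGTG or its complement CACCTG, the TATA letters TATAAA or TTTATA, and the CCAAT letters CCAAT or ATTGG, searched on both strands; no 2 marked matches overlap.
Snai1: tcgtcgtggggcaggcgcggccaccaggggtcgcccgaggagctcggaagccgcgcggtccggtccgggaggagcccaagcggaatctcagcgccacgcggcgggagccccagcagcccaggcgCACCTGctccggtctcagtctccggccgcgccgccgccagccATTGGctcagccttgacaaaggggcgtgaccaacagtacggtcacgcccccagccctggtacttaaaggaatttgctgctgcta
Twist1: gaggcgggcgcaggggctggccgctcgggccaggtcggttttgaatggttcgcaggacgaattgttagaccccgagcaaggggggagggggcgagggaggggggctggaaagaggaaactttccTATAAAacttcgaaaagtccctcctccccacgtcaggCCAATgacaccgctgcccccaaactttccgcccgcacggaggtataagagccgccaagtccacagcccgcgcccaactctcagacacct
Twist2: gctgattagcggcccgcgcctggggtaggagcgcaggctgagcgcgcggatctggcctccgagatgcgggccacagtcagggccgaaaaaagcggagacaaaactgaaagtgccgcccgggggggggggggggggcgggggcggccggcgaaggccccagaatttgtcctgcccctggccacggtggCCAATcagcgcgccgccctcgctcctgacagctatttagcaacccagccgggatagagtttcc
Vim: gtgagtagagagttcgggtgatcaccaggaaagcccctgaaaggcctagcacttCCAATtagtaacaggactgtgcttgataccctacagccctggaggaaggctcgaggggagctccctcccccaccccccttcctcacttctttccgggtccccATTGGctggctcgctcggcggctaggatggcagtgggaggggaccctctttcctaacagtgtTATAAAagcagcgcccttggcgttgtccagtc
The E-box letters occurred once, in the Snai1 window, with their first base at position -126 from the start. TATAAA began at -126 in Twist1 and at -32 in Vim. CCAAT letters lay in all 4 windows, at -84 in Snai1, -89 in Twist1, -63 in Twist2 and at -196 and -94 in Vim. Of 32851 RefSeq windows of this length, 17.2% held the E-box letters, 12.4% the TATA letters and 33.8% the CCAAT letters. These matches are letters in a window and do not show binding.

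Signals below are MAS5 signals, an intensity per probe set on a linear scale, set to the same trimmed mean on every array of a chip (1500.5 on MOE430A, 1500.2 on MOE430B). The background of an array is the highest signal of its control probe sets for a bacterial tryptophan gene, 515.5 to 829.8 on MOE430A and 1674 to 2995 on MOE430B, and between 43.5% and 85.0% of an array's probe sets lay below it. Control transcripts added at hybridisation read 2.88-fold, 1.44-fold and 2.85-fold higher on the MOE430A arrays of differentiated samples 1, 2 and 4 than the mean of the undifferentiated arrays. The part of this difference in the results was not tested beyond the alternative scaling on these controls, which moves the median log2 fold change of all MOE430A probe sets from 0.03 to -1.06. Fold changes are differentiated over undifferentiated, on the log2 scale with an offset, and a probe set passed at an adjusted p under 0.05 in limma.

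Of the 12 member probe sets tested on MOE430A, 4 passed, both of Cdh2 higher and 1 each of Zeb1 and Vim lower in the differentiated samples. Over all 15939 probe sets tested on that chip 28.5% passed, 14.1% higher and 14.4% lower, so 4 of 12 is near the background. Scaling on the hybridisation controls instead gave 9 passing member probe sets on MOE430A and 3 on MOE430B, all of them lower, where 66.8% and 8.45% of all tested on the chips passed lower. The values of the states did not overlap in 7 of the 12, compared with 47.7% of all tested. The members' median log2 fold change over probe sets was -0.14 beside 0.03 for all. With 1 probe set per gene, 9 members were tested on MOE430A, with a median of 0.06 beside 0.05 for all genes. Of these 9, 1 passed higher and 1 lower, where 14.2% and 13.9% of all genes shown on the chip did. On MOE430B none of the 7 member probe sets tested passed, where 1.83% of 17915 did. Of the 7, 4 had an unadjusted p under 0.05, as did 15.0% of all tested. The states of 4 of those 7 did not overlap, all lower in the differentiated samples, compared with 11.1% of all probe sets lower without overlap. These 4 belong to Zeb1 or Zeb2 and are not 4 separate genes, and Zeb2 1434298_at was below background on every array. The median log2 fold change of the 7 was -0.75 beside 0.04 for all tested on the chip. In RNA of whole cultures, fewer cells of a type and less RNA per cell cannot be told apart.

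**Figure D1:**
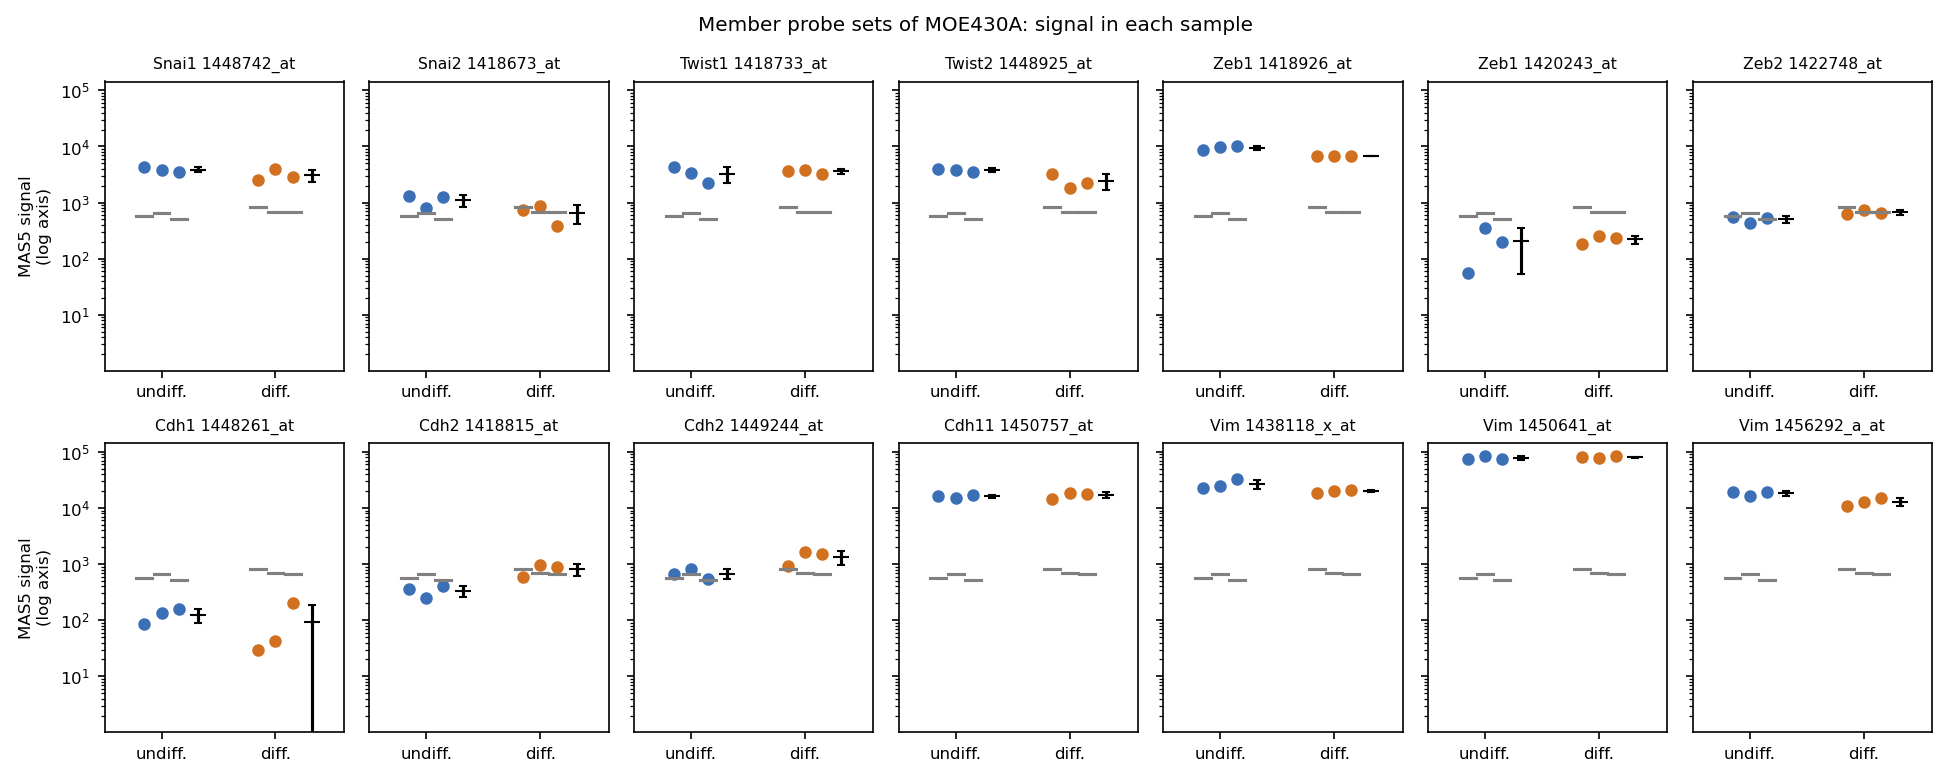
MAS5 signal (log axis) of the 14 member probe sets on MOE430A, with 1 dot per sample (blue undifferentiated, orange differentiated), the mean and SD in black and each array's background as a short grey line; the lower end of the SD of Cdh1 in the differentiated samples lies below 0 and leaves the axis. All 6 dots of Cdh1 lie under the background lines, and the Cdh11 and Vim dots lie far above them.

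**Figure D2:**
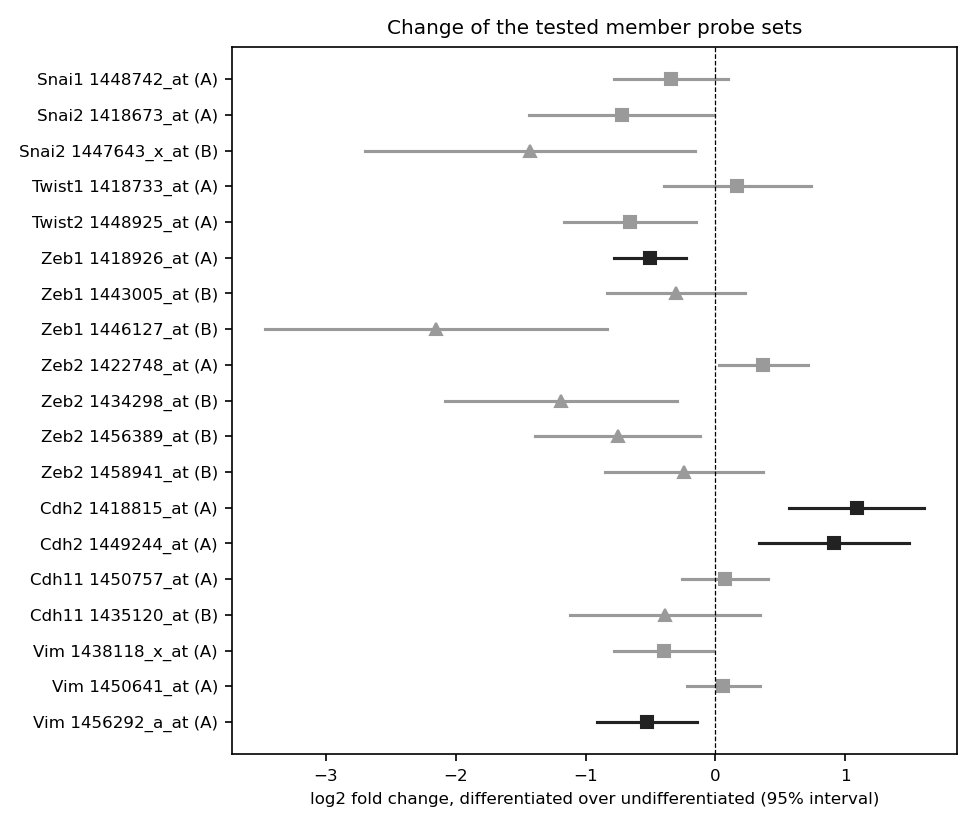
Log2 fold change, differentiated over undifferentiated, of the 19 tested member probe sets, with its 95% interval; squares are MOE430A, triangles MOE430B, black symbols passed and grey ones did not. The 2 Cdh2 probe sets stand to the right of 0 (at 0.07 and -0.17 under scaling on the hybridisation controls), and the Zeb1 and Vim probe sets that passed stand to the left at -0.50 and -0.53.

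Snai1, which encodes the zinc-finger repressor Snail, gave signals of 4336, 3738 and 3546 in undifferentiated samples 1, 2 and 4 and of 2528, 3893 and 2816 in the differentiated ones. All 6 were well above background, and differentiated sample 2 lay among the undifferentiated values. The mean was 3873 ± 412 (SD, n = 3) before and 3079 ± 719 (SD, n = 3) after differentiation. Its log2 fold change was -0.34 ± 0.19 (SE; adjusted p = 0.209), not past the threshold.

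Snai2, which encodes the related repressor Slug, was read by 1 probe set on each chip. On MOE430A, 1418673_at gave 1289.5, 794 and 1246 in the undifferentiated samples and 739, 855 and 387 in the differentiated ones, of which samples 1 and 4 lay below background. The states overlapped through undifferentiated sample 2 and differentiated sample 2. On MOE430B, 1447643_x_at gave 10690.2, 18635 and 19511 and then 2806, 11292 and 6151. There undifferentiated sample 1 lay under differentiated sample 2, and the other 4 values kept apart. Both fitted changes were negative without passing, at -0.72 ± 0.30 (SE; adjusted p = 0.116) on MOE430A and -1.42 ± 0.53 (SE; adjusted p = 0.283) on MOE430B.

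Twist1 and Twist2 encode closely related basic helix-loop-helix factors. Twist1 read 4326, 3339.6 and 2212 in the undifferentiated samples and 3597, 3881 and 3284 in the differentiated ones. Undifferentiated samples 1 and 4 were the highest and the lowest of the 6, so the undifferentiated range enclosed the differentiated one. The change of 0.17 ± 0.24 (SE; adjusted p = 0.628) did not pass, with a 95% interval from -0.40 to 0.73.

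Twist2 read 3994, 3863 and 3467 in the undifferentiated samples and 3237, 1796 and 2269 in the differentiated ones. Every differentiated value lay under every undifferentiated one, with sample 1 of the differentiated state nearest to them. The means were 3775 ± 275 (SD, n = 3) and 2434 ± 735 (SD, n = 3). The change of -0.66 ± 0.22 (SE) missed the threshold at an adjusted p of 0.0593. Leaving out differentiated sample 1 alone gave -0.88 and an adjusted p of 0.0124, and over the 6 fits without 1 sample the adjusted p ran up to 0.146.

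Zeb1 encodes a zinc-finger and homeodomain repressor and had 4 probe sets, 3 of them tested. Its probe set with the highest signal, 1418926_at on MOE430A, gave 8693, 9824 and 9981 in the undifferentiated samples and 6682, 6646 and 6670.3 in the differentiated ones. The differentiated values lay within a narrow range under all undifferentiated ones. The mean fell from 9499 ± 703 to 6666 ± 18.4 (SD, n = 3 each), a log2 fold change of -0.50 ± 0.12 (SE; adjusted p = 0.0203). The adjusted p was 0.0711 without undifferentiated sample 2 and 0.0748 without undifferentiated sample 4, and 0.234 with arrays scaled on the poly-A controls.

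On MOE430B, Zeb1 probe set 1443005_at gave 3997, 4249 and 4209 and then 2999.7, 3406 and 3670.0, again without overlap. Its change of -0.30 ± 0.22 (SE; adjusted p = 0.571) did not pass. The other, 1446127_at, gave 2889, 2761 and 3601 in the undifferentiated samples, all above background. In the differentiated samples its values of 232, 1371 and 719.7 were all below background, so that they give only a bound, at least 1.29-fold lower. The fitted change was -2.15 ± 0.55 (SE; adjusted p = 0.143). The untested 1420243_at read 55.7 to 359.8 and was below background on all 6 MOE430A arrays. The 3 tested Zeb1 probe sets thus all had negative fitted changes, of which 1 passed.

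Zeb2, which encodes the second Zeb repressor, had 5 probe sets, and they did not point the same way. On MOE430A, 1422748_at read 554, 426 and 542 and then 619, 745 and 662, close to background, with 2 values of each state below it. The differentiated values were all higher, but the change of 0.37 ± 0.14 (SE; adjusted p = 0.097) did not pass. On MOE430B, 1456389_at read 2631, 3046 and 3576 in the undifferentiated samples and 1587, 2266 and 1578 in the differentiated ones, lower without overlap. The undifferentiated values were above background, and those of differentiated samples 1 and 4 below it. Its change was -0.75 ± 0.27 (SE; adjusted p = 0.258).

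Zeb2 probe set 1458941_at, also on MOE430B, read 3841, 3453 and 3774 and then 2427, 3328 and 3694, above background on all 6 arrays and with overlapping states. It changed by -0.24 ± 0.26 (SE; adjusted p = 0.703). The remaining 2, 1434298_at and 1454200_at, were below background on all arrays. Of these 1434298_at was tested, with a change of -1.19 ± 0.38 (SE; adjusted p = 0.21) that both states below background leave without a fold.

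**Figure D3:**
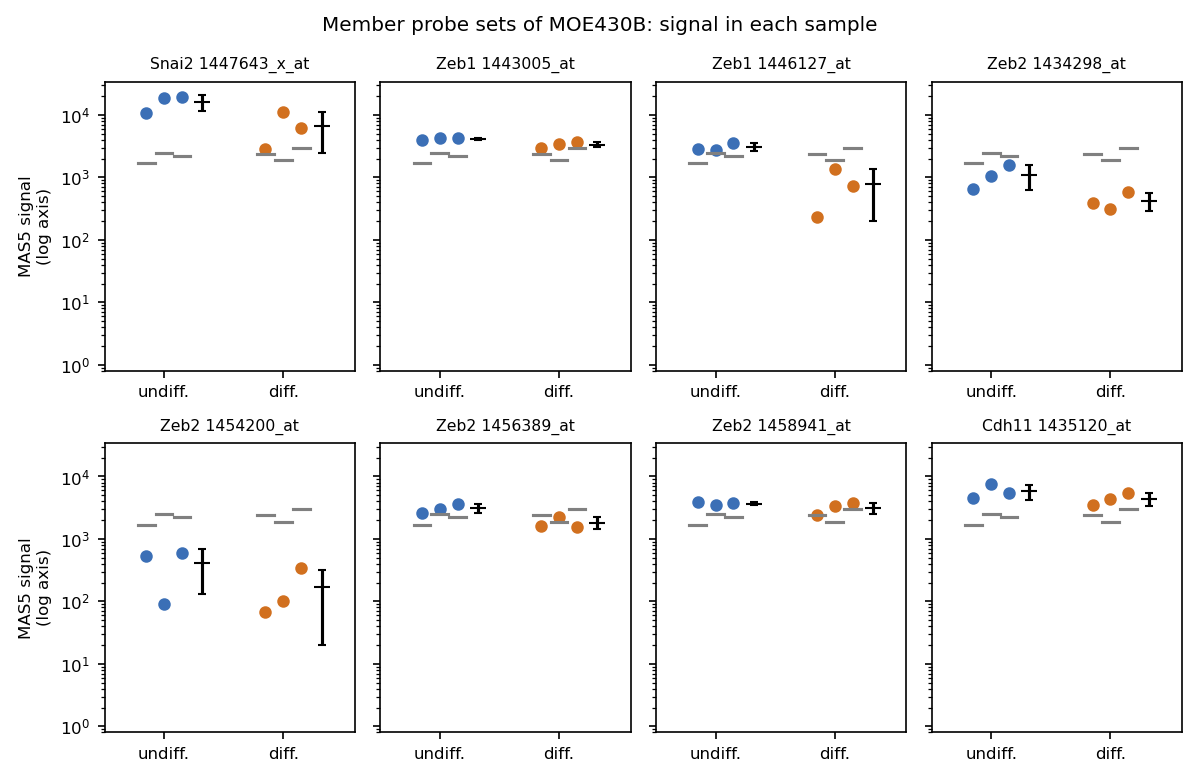
MAS5 signal (log axis) of the 8 member probe sets on MOE430B, with 1 dot per sample (blue undifferentiated, orange differentiated), the mean and SD in black and each array's background as a short grey line. The 4 probe sets whose states do not overlap, Zeb1 1443005_at and 1446127_at and Zeb2 1434298_at and 1456389_at, are all lower in the differentiated samples.

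Each of the 6 transcription factors had at least 1 probe set above background on all 6 arrays of its chip. For Snai2 and Zeb2 this was 1 probe set each, on MOE430B, while their MOE430A probe sets had values below background. That of Zeb2 read 2427 in differentiated sample 1, against a background of 2385. The fitted changes of the factors' 12 tested probe sets, over both chips, ran from -2.15 to 0.37, with 1, of Zeb1 on MOE430A, passing. Of all probe sets tested, 28.5% passed on MOE430A and 1.83% on MOE430B. The probe sets' signals show no order of levels between these genes, since probes differ in how they bind.

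Cdh1 was read by a single probe set, 1448261_at on MOE430A, and lay below background on every array. The signals were 84.4, 133 and 157 in the undifferentiated samples and 29.7, 42.3 and 202 in the differentiated ones. The differentiated values held both the lowest signals and the highest, and they enclosed the undifferentiated range. The probe set was under the filter and was not tested, so no change of Cdh1 could be measured, and a signal below background does not show that the transcript was absent. A fall of Cdh1, the other side of a cadherin switch, was therefore not measurable on these arrays, and a switch is not shown by them.

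Cdh2, the gene of N-cadherin, rose in the differentiated samples on both of its probe sets. Both are annotated to the same sequence and were read in the same samples, so they are not separate support for a rise. On 1418815_at the signals were 355, 249.8 and 403 in the undifferentiated samples, all below background, and 589, 945 and 873 in the differentiated ones, of which sample 1 was below background. The states did not overlap, with differentiated sample 1 the nearest to the undifferentiated values. Against the background of the undifferentiated arrays the signal was 1.36-fold higher in geometric mean. That ratio takes differentiated sample 1 as measured, below background, so it is not a strict lower bound. The fitted change was 1.09 ± 0.22 (SE, adjusted p = 0.0116). This call held in the 6 fits that each left out 1 sample, with adjusted p from 0.00735 to 0.0391.

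On the second Cdh2 probe set, 1449244_at, the signals were 656, 822 and 545 and then 919.5, 1626 and 1534, all above the background of their arrays. Here too every differentiated value was higher, and sample 1 was the lowest of them. The mean rose from 674 ± 139 to 1359.6 ± 384 (SD, n = 3 each), with a log2 fold change of 0.91 ± 0.24 (SE; adjusted p = 0.0307). The call was lost without differentiated sample 2 (adjusted p = 0.0804), differentiated sample 4 (adjusted p = 0.081), undifferentiated sample 1 (adjusted p = 0.0821) or undifferentiated sample 4 (adjusted p = 0.103). Scaling on the hybridisation controls, under which the median probe set falls by 1.06, gave 0.07 (adjusted p = 0.867) for 1418815_at and -0.17 (adjusted p = 0.68) for 1449244_at.

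The genes whose pattern over the 6 MOE430A arrays was most like that of Cdh2 1418815_at were Meg3, Dbp and Ero1a. Likeness was the mean absolute difference of log2 values after centring each gene on its own mean, and it came to 0.0291 for Meg3, 0.0877 for Dbp and 0.0943 for Ero1a. Meg3, a maternally expressed long noncoding RNA, read 1078, 777 and 1148 and then 1705, 2511 and 2457. The undifferentiated values of Cdh2 1418815_at were all below background, which limits this likeness.

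Cdh11, the gene of the mesenchymal OB-cadherin, gave no change that passed on either chip. On MOE430A, 1450757_at read 16117, 15103 and 16950.3 in the undifferentiated samples and 14569.7, 18727 and 17524 in the differentiated ones, far above background in both states. The lowest and the 2 highest values were all differentiated. Its change of 0.07 ± 0.14 (SE; adjusted p = 0.736) had a 95% interval from -0.26 to 0.40. On MOE430B, 1435120_at read 4543, 7589 and 5397 and then 3441, 4357 and 5483, with a change of -0.39 ± 0.31 (SE; adjusted p = 0.60).

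Vim, which encodes the intermediate filament vimentin, had 3 probe sets on MOE430A that did not move alike. The brightest, 1450641_at, read 73188, 83699 and 74721 in the undifferentiated samples and 79638, 78549.8 and 82689 in the differentiated ones, an overlap of the states. Its change was 0.06 ± 0.12 (SE; adjusted p = 0.741), with a 95% interval from -0.22 to 0.34.

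Vim probe set 1456292_a_at read 19229.9, 16046 and 19540.4 and then 10809, 12523 and 14827, lower in every differentiated sample than in any undifferentiated one. It fell by 0.53 on the log2 scale (SE 0.16; adjusted p = 0.0489), just inside the threshold. Only without differentiated sample 4 did it pass again (adjusted p = 0.0366); without any other sample the adjusted p lay between 0.0651 and 0.145. The third, 1438118_x_at, read 22766, 24623 and 32247 and then 18793, 20114 and 20873, also lower without overlap, and its change of -0.40 ± 0.16 (SE; adjusted p = 0.107) did not pass. Under quantile normalization the change of 1450641_at was -0.81 (adjusted p = 0.0031) and that of 1438118_x_at -0.58 (adjusted p = 0.0327), so the lack of a common direction depends on the scaling.

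The genes around the members were described with lists of 1 probe set per gene, and the counts and medians below are over the genes shown on MOE430A. Over the 9484 genes shown on MOE430A, 14.2% passed higher and 13.9% lower, with a median log2 fold change of 0.05. None of their genes shown on MOE430B passed. Scaling on the hybridisation controls turns the changes of Pkp2, Grhl2, Klf4 and Tgfb3 negative and ends the calls of Id3, Foxc1, Postn, Tgfbr3 and Pkp3.

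Among 19 partners, co-repressors and related factors tested on MOE430A, 2 were higher and 3 lower, with a median of -0.11. The inhibitors of basic helix-loop-helix factors were split: Id2 fell by 2.20 on the log2 scale (SE 0.18; adjusted p = 0.000256), its differentiated samples all below background and so at least 3.57-fold lower, while Id3 rose by 1.21 ± 0.21 (SE; adjusted p = 0.00587). Tcf4, which encodes the E-protein partner E2-2 of Twist factors, fell by 0.73 (SE 0.13; adjusted p = 0.00776), from 9525 ± 372 to 5727 ± 688 (SD, n = 3 each). Foxc1, a forkhead factor, read 416, 446 and 355 and then 1509.7, 1367 and 1031, at least 2.23-fold higher with an adjusted p of 0.00107.

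Of 14 TGF-beta inducers and SMAD genes tested on MOE430A, whose pathway is a known inducer of Snail and Zeb genes, 3 were higher and 4 lower, with a median of -0.04 (-0.26 with the 2 genes shown on MOE430B). The receptor Tgfbr1 fell by 1.77 (adjusted p = 0.000136), the co-receptor Tgfbr3 rose by 1.70 (adjusted p = 0.000141) and the ligand Tgfb3 rose by 1.14 (adjusted p = 0.00296). The ligands did not move alike: Tgfb1 fell by 1.71 (adjusted p = 0.000612), and Tgfb2 gave -0.69 without passing (adjusted p = 0.0885). Hmga2, a chromatin protein known to act on Snai1 and Twist1, fell by 2.89 (SE 0.20; adjusted p = 0.000133), from 11125 ± 2755 to 1407 ± 113 (SD, n = 3 each). Snai1 and Twist1 themselves did not pass beside it.

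Of the 19 mesenchymal matrix and motility genes tested, 8 were higher and 6 lower, with a median of 0.45, and all 19 were above background on all 6 arrays. Lox, which encodes the collagen cross-linking enzyme lysyl oxidase, read 2874, 2467 and 2327 and then 86971, 74172 and 84662, a rise of 4.96 ± 0.14 on the log2 scale (SE; adjusted p = 1.51e-05). Postn, the gene of the matrix protein periostin, rose by 1.84 (adjusted p = 0.000267), and the integrin subunit Itgav fell by 1.94 (adjusted p = 8.82e-05). Nes, an intermediate filament gene like Vim, fell by 2.09 (SE 0.20; adjusted p = 0.000508) on its probe set of highest signal, while another gave 0.21 (adjusted p = 0.519).

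The other cadherins, catenins and nectins had 3 higher and 1 lower of 13 tested on MOE430A, with a median of 0.27 (0.19 with the 3 genes shown on MOE430B). Nectin2, an adhesion protein of adherens junctions, rose by 2.22 ± 0.14 (SE; adjusted p = 8.56e-05). Cdh3, the gene of P-cadherin found in myoepithelial cells, read 85.6, 235 and 334 and then 979, 859.9 and 1056, at least 1.67-fold higher with an adjusted p of 0.0058. Ctnnb1, the gene of beta-catenin that binds cadherin tails, fell by 0.44 (SE 0.12; adjusted p = 0.0367), a call lost on this probe set without any 1 of the 6 samples (adjusted p from 0.062 to 0.118). Its other probe sets also passed lower, at -0.62 (adjusted p = 0.0112) and -0.48 (adjusted p = 0.039).

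Epithelial junction and polarity genes had 3 higher and 2 lower of 12 tested on MOE430A, with a median of 0.33 (0.41 with the 2 genes shown on MOE430B). The desmosome gene Dsp was at least 1.34-fold lower (adjusted p = 0.00191) and the tight junction gene Cldn1 at least 1.97-fold lower (adjusted p = 0.000891) in the differentiated samples, which were below background for both. The desmosomal plaque gene Pkp2 was at least 1.44-fold higher (adjusted p = 0.0237), and Pkp3 gave a fitted change of 0.99 (adjusted p = 0.0468) with both states below background. Leaving out a sample ended the Pkp2 call except for differentiated sample 4 (adjusted p from 0.013 to 0.0812), and the Pkp3 call except for sample 4 of either state (adjusted p from 0.0395 to 0.119).

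Of the 5 epithelial transcription and splicing factors tested on MOE430A, 2 were higher and none lower. Klf4, a Krüppel-like factor, passed higher (adjusted p = 0.00486) and was 1.48-fold higher against the background of the undifferentiated arrays. Its differentiated sample 1 was below background and taken as measured, so this is not a strict lower bound. Grhl2, a grainyhead factor that activates Cdh1, rose by 0.87 ± 0.22 (SE, adjusted p = 0.026). Another Klf4 probe set gave 0.75 with overlapping states and did not pass (adjusted p = 0.126). The Grhl2 call was lost without differentiated sample 1 or 4 or undifferentiated sample 1 or 2 (adjusted p from 0.0534 to 0.082), and another of its probe sets gave -0.52 (adjusted p = 0.235). Of the 14 factors listed, 10 were below background on every array, among them Esrp1, Esrp2, Ovol1 and Elf5. The share of all genes below background on every array was not computed. On a single array 43.5% to 85.0% of the probe sets lay below it.

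**Figure D4:**
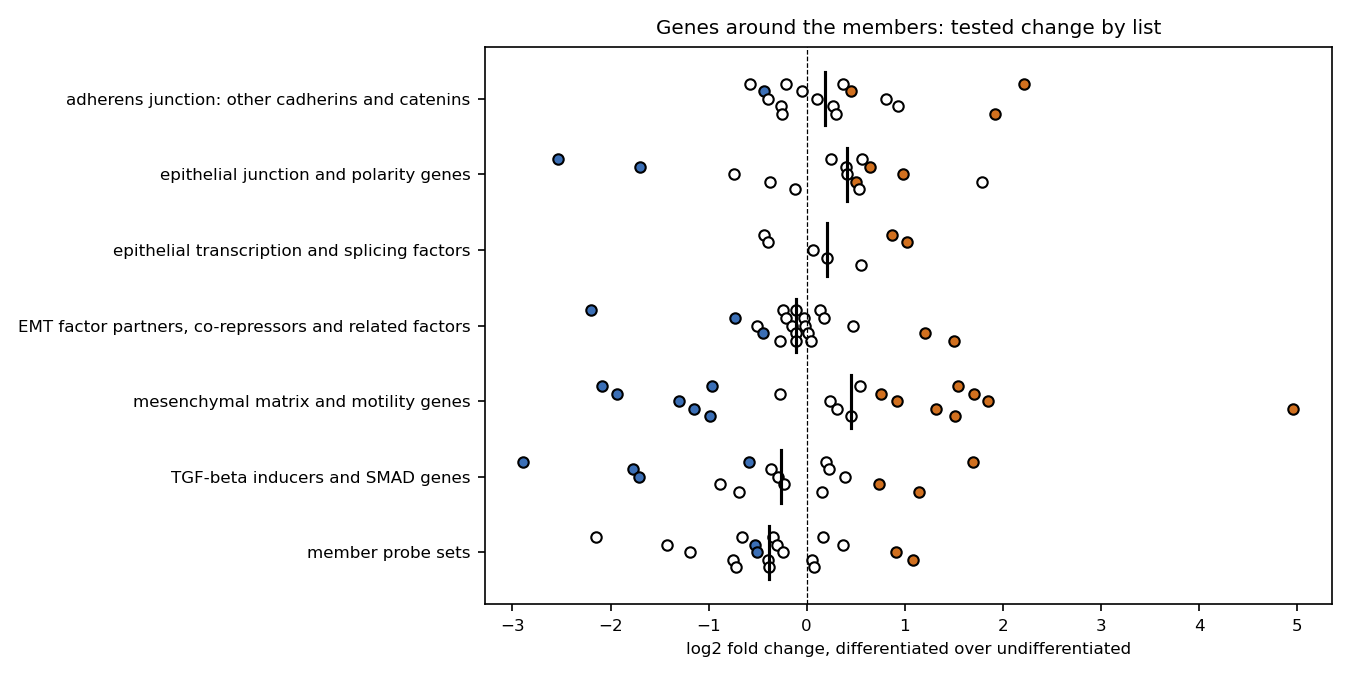
Log2 fold change, differentiated over undifferentiated, of the tested genes of each list (1 probe set a gene, either chip) and of the 19 member probe sets; filled circles passed (orange higher, blue lower), open ones did not, and the vertical bar is the median over both chips. The member probe sets lie between -2.15 and 1.09, a narrower span than that of the mesenchymal genes, which reach 4.96 with Lox.

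The cells were checked against markers of the types they could hold. All 8 fibroblast and mesenchymal markers were above background on all arrays, with a summed MOE430A signal of 250315 to 261572 in the undifferentiated and 363563 to 498937 in the differentiated samples. Of these 8, Pdgfra, Thy1, Col1a1 and Col3a1 rose, Lum and Fap fell, and Dcn and Pdgfrb did not pass; Col1a1 and Col3a1 carry most of the rise in the sum. For myoepithelial cells 1 of 8 markers, Acta2, was above background on all arrays, while Krt5, Krt14, Trp63, Myh11 and Oxtr were below it on every array. The sum of that list rose from a range of 7431 to 7995 to one of 49138 to 63952, most of it Acta2, a gene that fibroblasts in culture also express. Of its 6 tested genes 3 rose and none fell: Acta2 by 3.14 (adjusted p = 2.9e-05), Mylk by 2.84 (adjusted p = 0.000421) and Cnn1, below background in the undifferentiated samples, with a fitted change of 1.98 (adjusted p = 0.0171). Of the 8 luminal markers with a probe set only Krt8 was above background throughout. Krt19, Elf5, Gata3, Esr1 and Muc1 were below it on every array.

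The summed luminal signal was 2100 to 3088 in the undifferentiated and 1957 to 2138 in the differentiated samples, and neither of the 2 luminal markers tested, Krt8 and Krt18, passed; the other 6 were under the filter. Epcam, an epithelial surface marker, was below background on its MOE430A probe set, but its MOE430B probe set read 7377, 1961 and 8816 and then 3911, 10031.7 and 7869, below background only in undifferentiated sample 2. Of the 7 leukocyte and macrophage markers, Csf1r, Cd14 and Lyz2 were above background on all arrays and rose, by 0.77 (adjusted p = 0.00472), 0.97 (adjusted p = 0.00495) and 0.94 (adjusted p = 0.0324), while Ptprc and Itgam were below it throughout. Neither Cd68, at -0.46 (adjusted p = 0.0619), nor Adgre1, at 0.34 (adjusted p = 0.125), passed. The summed signal of the 7 was 5427 to 6559 in the undifferentiated and 8130.2 to 10273 in the differentiated samples. The endothelial sums overlapped, at 3924 to 4684 and 3406.5 to 4868, with Kdr higher and Pecam1 and Tek lower among 6 tested. The Schwann and neural crest sums overlapped too, at 3473 to 5621 and 3736 to 5159.8. There Sox10 rose by 0.68 (adjusted p = 0.0111) and Ngfr gave -0.17 (adjusted p = 0.738), both above background, while Mbp passed higher and S100b lower with both states below background. The signals of these lists stand beside those of Cdh2, Cdh11, Vim and the transcription factors, and their part in the members' values was not tested.

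**Figure D5:**
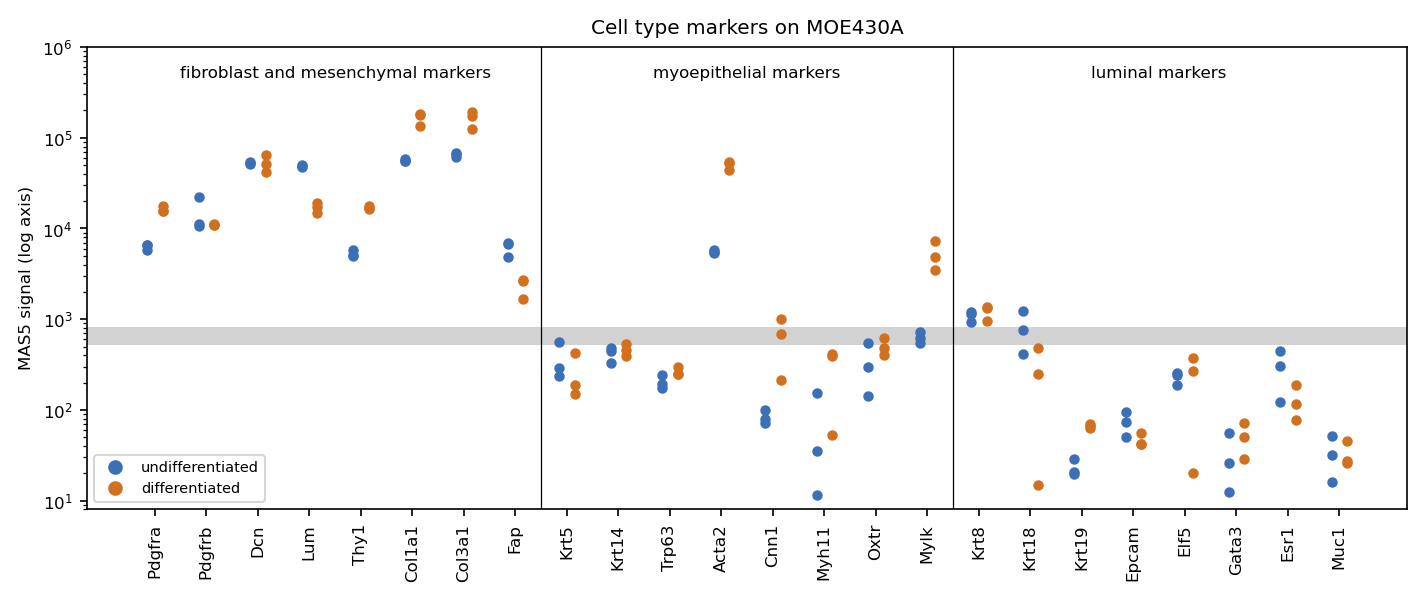
MAS5 signal (log axis) of fibroblast, myoepithelial and luminal markers on MOE430A, with 1 dot per sample (blue undifferentiated, orange differentiated); the grey band is the range of the background over the 6 arrays, 515.5 to 829.8. All fibroblast markers lie above the band, while of the keratins only Krt8 lies above it in every sample.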

How the data were processed

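Per the labels, total RNA was prepared with TRIzol from 3 undifferentiated and 3 differentiated mammosphere samples. Each was hybridised to both chips. What the authors deposited is 1 intensity per probe set and array on a linear scale, made with MAS5 per the submitters' processing notes (version not given in the sources used here). The 2% trimmed mean of these values is 1500.5 on every MOE430A array and 1500.2 on every MOE430B array. The arrays' instrument records gave fluidics station 2 for the undifferentiated and station 1 for the differentiated arrays, and a second scan session for undifferentiated sample 1.

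Probe sets were named through the platform annotation, with symbols updated through RefSeq (GRCm38.p6). Of 22690 probe sets on MOE430A, 20393 have 1 gene, 691 several and 1606 none, and of 22575 on MOE430B, 14674, 245 and 7656. Arrays were brought to the trimmed mean of their chip, and log2 was taken after adding 75 signal units, 5% of that mean. A probe set was tested if its mean over the 6 arrays reached 20% of the trimmed mean, leaving out the 64 control probe sets of each chip. limma 3.58.1 (R 4.3.3; lmFit and eBayes) compared the states on each chip apart, two-sided, with no covariate, and Benjamini-Hochberg adjustment ran over all probe sets of the chip. The procedure was run on simulated data with independent errors and few changed probe sets. That setting lacks the differences between arrays seen in the hybridisation controls, so it does not test the results against them. A state with all 3 values under the background of their arrays was set to that background, which makes the ratio of geometric means a lower bound. The number of arrays limits the precision.

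The named genes are the 10 members with every probe set, up to 2 largest rises and 2 largest falls among the genes that passed in each list, and the 3 genes most like the member of smallest adjusted p. Tgfb1 and Tgfb2 were named in addition, to stand beside Tgfb3. For a listed gene the text gives the tested probe set of highest mean signal, from MOE430A where there is one. The members and lists were chosen with earlier results of these data known. The labels do not say that sample numbers pair the samples. Deviations of same-numbered samples correlated at -0.02 to 0.05, and those of differently numbered samples at -0.08 to 0.04. With 3 samples of either state these values cannot decide whether the samples are paired. Alternatives were other scalings, offsets, filters and priors, blocks for sample number and scan session, and leaving out samples. The session block equals leaving out undifferentiated sample 1, so it is no separate alternative. Planned differences of log2 Cdh2, Cdh11 and Vim from log2 Cdh1 are not given, because Cdh1 was below background on every array. Figures were drawn with matplotlib 3.10.9.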

Additional observations from a re-analysis of the deposited data

How the results depend on the processing

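Over all probe sets of MOE430A, 4550 passed; the count was 10896 with arrays scaled on the hybridisation controls, 2538 on the poly-A controls, 2384 without differentiated samples 1 and 4, and 2760 to 3823 without 1 sample. On MOE430B, 328 passed; the count was 1548 on the hybridisation controls, 168 on the poly-A controls, 838 with a trend and robust prior, 58 with scan session as a block, and 39 to 146 without 1 sample. No probe set of that chip passed in limma (count 0) with the sample number as a replicate block, where 2505 had an unadjusted p under 0.05. Leaving out differentiated samples 1 and 4 keeps 1 differentiated sample, so no count of probe sets passing is given for that fit. Of the member probe sets 4 passed; 12 passed on the hybridisation controls, 2 on the poly-A controls, 2 with no filter, 7 with a trend and robust prior, 2 with the replicate block, 2 with the scan session, and 1 to 4 without 1 sample. Only undifferentiated sample 1 was in the second scan session, so on either chip the session block is the same fit as leaving that sample out. The replicate block was run although the labels do not say that the numbers pair the samples. It ended the calls of Zeb1 1418926_at (adjusted p = 0.0543) and Vim 1456292_a_at (adjusted p = 0.0729) and kept both of Cdh2.

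On the hybridisation controls the log2 fold change turned to -0.99 for Twist1, -0.67 for Zeb2 1422748_at, -0.17 for Cdh2 1449244_at, -1.11 for Cdh11 1450757_at, -1.13 for Vim 1450641_at, -0.41 for Pkp2, -0.23 for Grhl2, -0.0209 for Klf4 and -0.0164 for Tgfb3. Quantile normalization gave -0.0188 for Cdh11 1450757_at and -0.81 for Vim 1450641_at. Scaling on the 100 probe sets that both chips carry, an alternative chosen after seeing the data, gave 0.01 for Zeb2 1458941_at and moved the median of all probe sets to 0.15 on MOE430A and 0.28 on MOE430B. Snai1 came to 0.0123 without differentiated samples 1 and 4. Without 1 sample, Twist1 ran from -0.0852 to 0.39 and Cdh11 1450757_at from -0.0054 to 0.17. The causes of these differences were not tested. Between 69.3% and 85.0% of the probe sets of a MOE430B array lay below its background, which limits what that chip can show.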
